A study of Danio rerio with 6 samples.

Results

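The transcripts of 6 transcription factors of blood progenitors were followed in zebrafish thrombocytes that did or did not overexpress the microRNA miR-150. They were myb (ENSDARG00000053666), runx1 (ENSDARG00000087646), gata2a (ENSDARG00000059327), tal1 (ENSDARG00000019930), lmo2 (ENSDARG00000095019) and fli1 (ENSDARG00000054632). They were taken by identifier from the 32520 genes of the count table, and the gene name table at hand gave 6 of the 6 identifiers the matching symbol (GATA2 for gata2a). The rule that names them uses no measured value, but the genes were chosen with earlier results of these data known. Thrombocytes are the nucleated cells of fish that take the place of mammalian platelets.

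All larvae were taken at 5 days post fertilization, after pigment had been blocked with 1-phenyl 2-thiourea. The control group (n = 3 libraries) carried the transgene -6.0itga2b:tagRFP, in which the itga2b promoter drives a red fluorescent protein. The miR-150 group (n = 3) carried -6.0itga2b:miR-150-tagRFP in its place, so that miR-150 came from that promoter together with the red protein. Larvae of either group also carried the green reporter -6.0itga2b:EGFP. Cells with either colour alone were left out, and RNA came from the cells that carried red and green. The itga2b promoter is known in zebrafish to be active not only in thrombocytes but, more weakly, in blood stem and progenitor cells, so such a sort can hold both. The labels number the libraries as biological replicates and do not say how many larvae or clutches stand behind each.

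MicroRNAs pair through a short seed with messenger RNAs and lower their stability or translation. In mammals, MYB is the best described target of miR-150, and the pair has been studied in lymphocyte development and in the choice of progenitors between the megakaryocyte and the red cell fate. The proteins studied here act in networks. TAL1 and LMO2 sit with GATA factors in a DNA-bound complex, LMO2 being the bridge that binds no DNA itself, while RUNX1 and the ETS factor FLI1 bind many of the same enhancers and switch on megakaryocyte genes. In zebrafish, runx1 and myb mark the emerging blood stem cells, and tal1, lmo2, fli1 and gata2a are also used by the endothelium.

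The libraries held 12972258 to 22150519 counts. The mir150 gene itself had 0 counts in all 6 libraries, and the transgene is not a row of the table, so these counts cannot check the overexpression. A list of thrombocyte markers was read in each library, of which 9 of 12 could be matched by name. Summed, they stood at 5545 to 10196 CPM (counts scaled to library size and corrected for composition with TMM factors) in controls and at 2416 to 7781 CPM in miR-150 libraries. itga2b, the integrin gene whose promoter drove the reporters, stood at 1297 to 6199 CPM across the libraries, with 6199 of the 10196 CPM in control replicate 1. Because cells were sorted through that promoter, the sum is no independent check of the labelled cell type. Of the other markers, gp1bb stood at 540 to 1613 CPM and alox12 at 0 to 37.8 CPM. The identifier that the name table gives for p2ry12 had 0 counts in every library, and that pairing could not be checked. The miR-150 replicate 3 library stood apart, with the lowest summed thrombocyte markers, and values without it are given beside the results for the 6 genes.

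myb, which encodes the DNA-binding protein that keeps immature blood cells renewing and dividing, was the member whose libraries separated by genotype. It had 1828, 450 and 1105 counts in control replicates 1, 2 and 3, which is 96.2, 30.2 and 54.2 CPM. In miR-150 replicates 1, 2 and 3 it had 323, 452 and 98 counts, or 16.3, 24.2 and 7.27 CPM. Every miR-150 library was below every control, with a narrow gap between miR-150 replicate 2 and control replicate 2. Among all 15722 genes tested, 5.95% were likewise lower in every miR-150 library than in every control, and myb was the only one of the 6 members to be so.

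The group means for myb were 60.2 ± 33.4 CPM in controls and 15.9 ± 8.47 CPM in miR-150 libraries (SD, n = 3 each). The fitted log2 fold change was -1.92 with a standard error of 0.63, a 3.78-fold lower level, and its 95% interval ran from -3.39 to -0.45. The difference did not pass the test across all genes (edgeR quasi-likelihood test, Benjamini-Hochberg adjusted p = 0.807). In that test 0 of 15722 genes passed, a background of 0%, and 855 had an unadjusted p below 0.05. The 130 of them that were lower in miR-150 libraries, myb included, make up 0.827% of the genes tested. myb ranked 334 of 15722 by p-value. Permuting the labels of the 3 and 3 libraries (exact, two-sided) gave p = 0.1, the smallest this design allows.

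In bulk libraries, fewer cells of a type and less RNA per cell cannot be told apart, and this holds for each difference given here. With DESeq2 in place of edgeR, 1.63% of the genes had an adjusted p below 0.05, and myb was not among them (adjusted p = 0.167). Without miR-150 replicate 3 the myb log2 fold change was -1.57 and the edgeR unadjusted p 0.0376. Without control replicate 1, the library with the most myb, they were -1.40 and 0.0796.

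**Figure D1:**
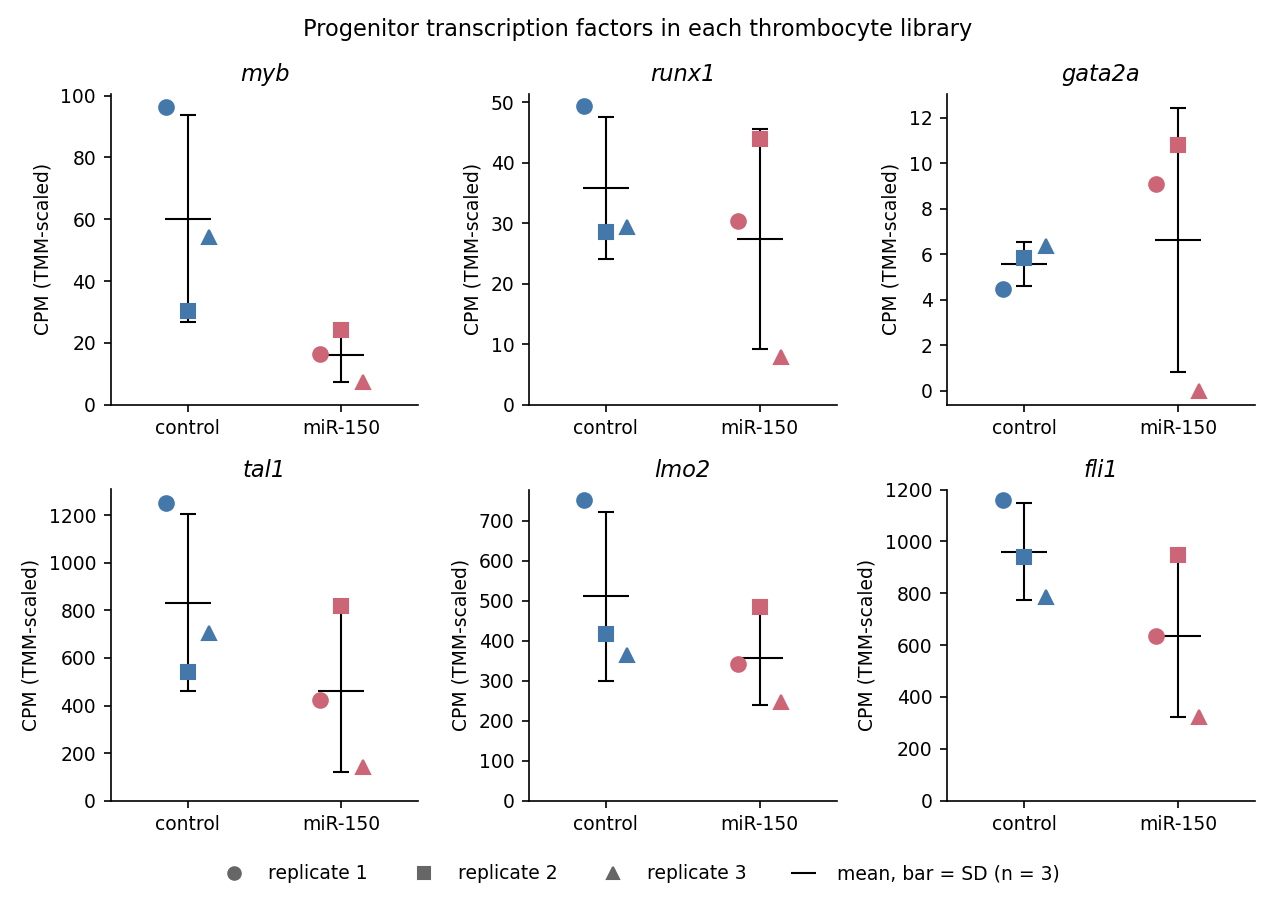
Level of each of the 6 genes in TMM-scaled CPM on linear axes that start at or just below 0, by genotype. Points are libraries, horizontal marks are group means and bars are SD (n = 3). The 3 miR-150 libraries lie below all 3 controls for myb, from 7.27 to 24.2 against 30.2 to 96.2 CPM, and the groups overlap for the other genes.

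runx1 encodes the DNA-binding subunit of the core-binding factor, needed for blood stem cells to form and for megakaryocytes to mature. It had 938, 426 and 600 counts in control replicates 1, 2 and 3 (49.4, 28.6 and 29.4 CPM). In miR-150 replicates 1, 2 and 3 it had 603, 821 and 107 counts (30.4, 44.0 and 7.94 CPM). miR-150 replicates 1 and 2 lay inside the control range, and replicate 3 lay below it. The log2 fold change was -0.38 (SE 0.65, 95% interval -1.91 to 1.14, edgeR adjusted p = 0.989). Without miR-150 replicate 3 it was 0.061, so the sign of the difference rested on that library.

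gata2a encodes a zinc finger factor of stem and progenitor cells and of endothelium. Its counts in control replicates 1, 2 and 3 were 85, 87 and 130 (4.48, 5.84 and 6.38 CPM). In miR-150 replicates 1, 2 and 3 it had 180, 202 and 0 counts (9.08, 10.8 and 0 CPM), where 3 counts, taken as the limit of detection, correspond to 0.223 CPM in the last. miR-150 replicates 1 and 2 were thus above all controls and replicate 3 was below all of them. The log2 fold change of 0.25 carried a standard error of 1.59 and an interval from -3.48 to 3.99 (edgeR adjusted p = 0.995). Without miR-150 replicate 3 it was 0.84, and without miR-150 replicate 2 it was -0.28.

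tal1 encodes the basic helix-loop-helix factor on which the first blood cells depend, and which megakaryocytes and red cell precursors go on using. It had 23769, 8079 and 14348 counts in control replicates 1, 2 and 3 (1251, 543 and 704 CPM). In miR-150 replicates 1, 2 and 3 it had 8366, 15247 and 1919 counts (422, 816 and 142 CPM). miR-150 replicates 1 and 3 were below all controls, and replicate 2 was above 2 of the 3. The log2 fold change was -0.86 (SE 0.69, 95% interval -2.46 to 0.75, edgeR adjusted p = 0.988), and without miR-150 replicate 3 it was -0.42.

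lmo2, the bridging partner of tal1, had 14290, 6188 and 7424 counts in control replicates 1, 2 and 3 (752, 416 and 364 CPM). In miR-150 replicates 1, 2 and 3 its counts were 6755, 9066 and 3334 (341, 485 and 247 CPM). As for tal1, miR-150 replicates 1 and 3 were below all controls and replicate 2 was inside their range. The log2 fold change was -0.51 (SE 0.47, 95% interval -1.61 to 0.58, edgeR adjusted p = 0.988). It was -0.30 without miR-150 replicate 3 and -0.12 without control replicate 1.

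fli1 encodes an ETS factor that drives megakaryocyte genes and is also a marker of endothelium. It had 22005, 14007 and 15981 counts in control replicates 1, 2 and 3 (1159, 941 and 784 CPM). In miR-150 replicates 1, 2 and 3 it had 12593, 17702 and 4323 counts (635, 948 and 321 CPM). Again miR-150 replicates 1 and 3 were below all controls, while replicate 2 was just above control replicate 2. The log2 fold change was -0.60 (SE 0.51, 95% interval -1.80 to 0.60, edgeR adjusted p = 0.988), and without miR-150 replicate 3 it was -0.27.

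All 6 members passed the filter on low counts, and 5 of them had a fitted log2 fold change below 0, as had 48.2% of all genes tested. Their median log2 fold change was -0.56, beside 0.044 over all genes tested. Without miR-150 replicate 3, 4 of the 6 were below 0 and the median was -0.29, beside 0.054 over all genes. For 6 of the 6 the lowest level was that of miR-150 replicate 3, and this library was the lowest for 28.3% of all genes tested. For 5 of the 6 the highest level was that of control replicate 1, and that library was the highest for 16.2% of all genes. The members are not independent of each other, since they were read in the same 6 libraries.

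**Figure D2:**
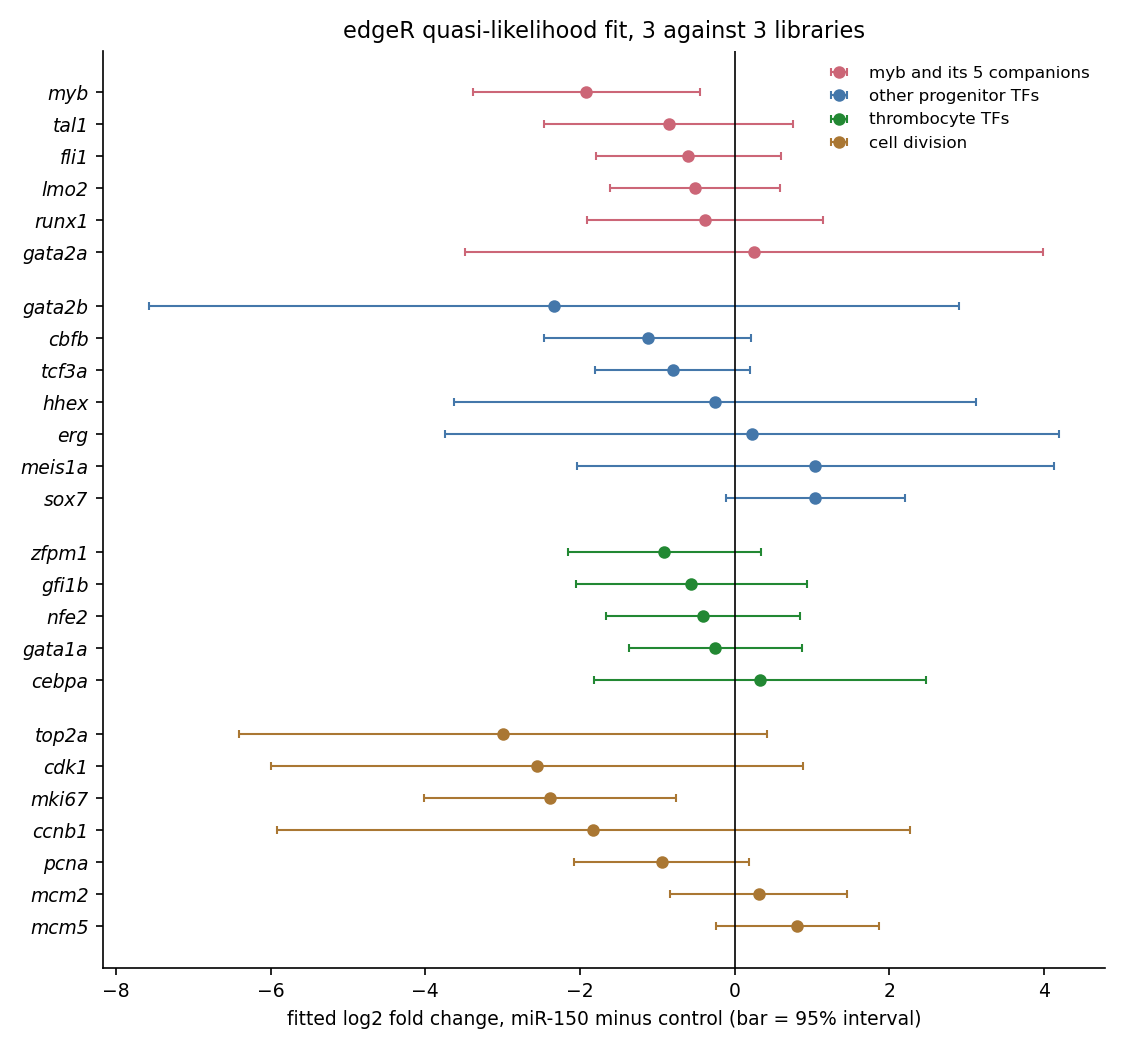
Fitted log2 fold change (miR-150 minus control, horizontal axis) with its 95% interval for the 6 genes and for the tested genes of 3 further lists. In the upper block the interval of myb, -3.39 to -0.45, lies below 0, and the other 5 intervals include 0.

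The summed level of the thrombocyte markers differed between libraries. myb was therefore also set against other genes of the same library, which needs no scaling of libraries. For each 100 runx1 counts there were 195, 106 and 184 myb counts in control replicates 1, 2 and 3, and 53.6, 55.1 and 91.6 in miR-150 replicates 1, 2 and 3. For each 100 tal1 counts there were 7.69, 5.57 and 7.70 myb counts in the controls and 3.86, 2.96 and 5.11 in the miR-150 libraries. The 3 miR-150 libraries were below the 3 controls in either ratio, as 1.97% of all genes were against runx1 and 0.611% against tal1.

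Against lmo2, 100 counts went with 12.8, 7.27 and 14.9 myb counts in the controls and with 4.78, 4.99 and 2.94 in the miR-150 libraries. Against fli1 the values were 8.31, 3.21 and 6.91 in the controls and 2.56, 2.55 and 2.27 in the miR-150 libraries. The groups again did not overlap, where 1.36% of all genes were lower in this way against lmo2 and 1.35% against fli1. Of the 5 pairs of members that include myb, 4 had ratios without overlap, all built on the same myb counts. The exception was gata2a, which had 0 counts in miR-150 replicate 3, so that its ratio to myb there was below every control. In the other libraries, 100 gata2a counts went with 2151, 517 and 850 myb counts in control replicates 1, 2 and 3 and with 179 and 224 in miR-150 replicates 1 and 2. Of the 10 pairs without myb, 1 had ratios without overlap, runx1 with tal1. The pairs were counted in either direction, and no share over all genes was counted in that way. The counts of pairs are therefore a description and do not set myb, or runx1 with tal1, apart from the other members.

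For each 1000 counts of the thrombocyte markers there were 9.44, 4.69 and 9.78 myb counts in control replicates 1, 2 and 3. There were 2.30, 3.11 and 3.01 in miR-150 replicates 1, 2 and 3. On this measure miR-150 replicate 3 was no longer the lowest library, and the groups stayed apart, as they did for 2.35% of all genes in this direction. With libraries scaled by these markers in place of TMM, the myb log2 fold change was -1.51, against a median of 0.58 over all genes under that scaling (edgeR unadjusted p = 0.0451, adjusted p = 0.750). That scaling was chosen after seeing the data. It leans on itga2b, the gene whose promoter drove the sort, which held 6199 of the 10196 CPM of these markers in control replicate 1. The values per 1000 marker counts overlapped between the groups for the other members, with tal1 at 84.1 to 127 in controls and 59.0 to 105 in miR-150 libraries.

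**Figure D3:**
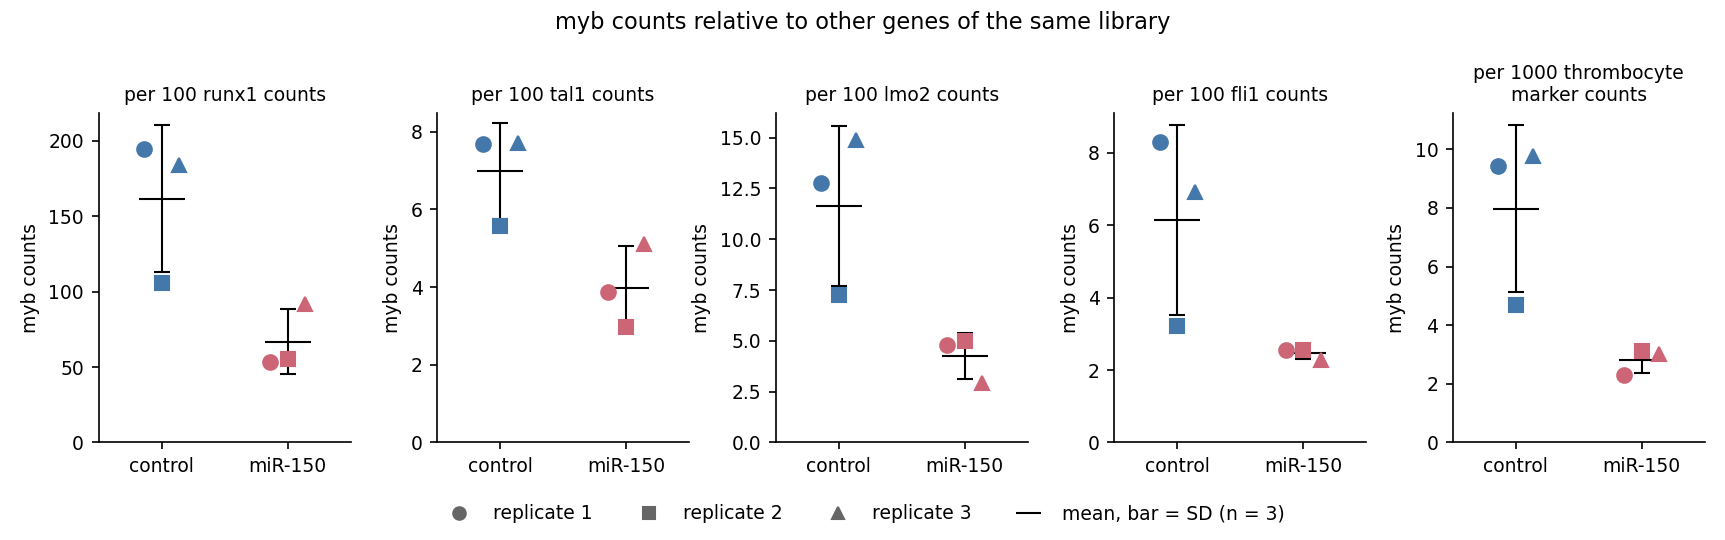
myb counts per 100 counts of runx1, tal1, lmo2 or fli1 and per 1000 counts of the thrombocyte markers, on linear axes from 0, by genotype. Points are libraries, marks are means and bars are SD (n = 3). In each panel the 3 miR-150 libraries lie below the 3 controls, for example 53.6 to 91.6 against 106 to 195 per 100 runx1 counts.

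Further progenitor factors were looked up by symbol from a list of 16, of which 9 were matched and 7 passed the filter. None of the 7 passed the test in either direction (0 higher, 0 lower), and 0 had an unadjusted p below 0.05. Their median log2 fold change was -0.25, with 4 below 0 and 3 above, and 0.22 without miR-150 replicate 3. cbfb, which encodes the partner subunit of Runx1, had the largest mean level of the list, with 118, 110 and 132 CPM in control replicates 1, 2 and 3. It stood at 81.3, 66.9 and 17.0 CPM in miR-150 replicates 1, 2 and 3, below every control (log2 fold change -1.12, SE 0.57, edgeR adjusted p = 0.988). Without miR-150 replicate 3 the cbfb log2 fold change was -0.69. tcf3a, which encodes an E protein of the kind that pairs with Tal1, stood at 26.3 to 39.7 CPM in controls and 14.8 to 22.7 CPM in miR-150 libraries, again without overlap. Its log2 fold change was -0.80 (SE 0.43, edgeR adjusted p = 0.988), and -0.65 without miR-150 replicate 3. These 2 of the 7 tested were lower without overlap, as were 5.95% of all genes tested. sox7, an endothelial and early blood factor, lay the other way, at 13.7 to 20.4 CPM in controls and 20.4 to 51.2 CPM in miR-150 libraries (log2 fold change 1.04, SE 0.49, edgeR adjusted p = 0.962). Its groups overlapped narrowly, with miR-150 replicate 1 at 20.39 and control replicate 2 at 20.42 CPM. meis1a, a homeobox factor of progenitors, also had a log2 fold change of 1.04 (SE 1.31, edgeR adjusted p = 0.988). It stood at 3.11, 3.69 and 15.1 CPM in control replicates 1, 2 and 3. In miR-150 replicates 1, 2 and 3 it stood at 37.5, 0.857 and 6.75 CPM, so only replicate 1 was above the controls. gata2b, the gata2 copy that zebrafish use in blood stem cells, stood at 0.737 to 4.57 CPM in controls and 0 to 1.82 CPM in miR-150 libraries.

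A further list held mainly factors that thrombocytes and red cells go on using. Of its 10 genes, 6 were matched and 5 passed the filter, with 0 higher and 0 lower by the test. Their median log2 fold change was -0.41, with 4 below 0 and 1 above, and -0.066 without miR-150 replicate 3. The 1 above was cebpa (0.33, SE 0.91), which is not a factor of that kind. nfe2, which megakaryocytes need to release platelets in mammals, stood at 388 to 720 CPM in controls and 179 to 577 CPM in miR-150 libraries (log2 fold change -0.41, SE 0.53, edgeR adjusted p = 0.988). zfpm1, the cofactor of Gata1, stood at 484 to 679 CPM in controls and 132 to 490 CPM in miR-150 libraries (log2 fold change -0.91, SE 0.53). gata1a stood at 162 to 383 CPM in controls and 132 to 281 CPM in miR-150 libraries. In each of these 3 genes the groups overlapped and the lowest library was miR-150 replicate 3. Without that library the log2 fold changes of nfe2, zfpm1 and gata1a were -0.066, -0.54 and 0.018.

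A list of cell division genes was also read, and any link of their levels to that of myb was not tested. All 7 were matched and passed the filter. By the test 0 were higher and 0 lower, while 1 was lower at an unadjusted p below 0.05. Their median log2 fold change was -1.83, with 5 below 0 and 2 above, and -1.47 without miR-150 replicate 3. mki67, a protein of dividing cells, stood at 105, 148 and 142 CPM in control replicates 1, 2 and 3 and at 49.7, 7.28 and 18.4 CPM in miR-150 replicates 1, 2 and 3. Its log2 fold change was -2.39 (SE 0.69, edgeR adjusted p = 0.758). top2a, the topoisomerase that untangles chromosomes, stood at 38.0 to 77.0 CPM in controls and 0.0742 to 17.8 CPM in miR-150 libraries, and cdk1, the mitotic kinase, at 28.1 to 34.5 against 0 to 8.39 CPM. pcna, the sliding clamp of DNA replication, stood at 166 to 356 CPM in controls and 71.2 to 150 CPM in miR-150 libraries. These 4 of the 7 genes were lower without overlap, as were 5.95% of all genes tested. The replication helicase genes mcm2 and mcm5 had log2 fold changes of 0.31 and 0.81, so the fitted values of this list did not share a direction.

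RNA of other cell types was read in the same libraries, and its part in the results was not tested. The 4 matched skin markers, all keratins, summed to 664, 11143 and 16436 CPM in control replicates 1, 2 and 3 and to 8942, 7627 and 3079 CPM in miR-150 replicates 1, 2 and 3. Control replicate 1, with the least skin RNA, had the highest level of 5 of the 6 members and of 16.2% of all genes tested. The miR-150 replicate 3 library, with the next least skin RNA, had the lowest level of 6 of the 6 members and of 28.3% of all genes. The 9 matched endothelial markers summed to 102 to 192 CPM in controls and 166 to 287 CPM in miR-150 libraries, and all 8 that were tested had log2 fold changes above 0. The endothelial receptor gene kdrl stood at 3.63 to 33.0 CPM in controls and 16.8 to 46.3 CPM in miR-150 libraries. tek, with the largest mean level of this list, stood at 70.9 to 79.6 CPM in controls and 65.7 to 110 CPM in miR-150 libraries (log2 fold change 0.26, SE 0.34).

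Of the other blood lineages, the 7 matched erythroid markers summed to 187 to 413 CPM in controls and 267 to 427 CPM in miR-150 libraries, most of it gata1a in the controls, and hbbe3 and klf1 were at 0 throughout. One of them, the embryonic globin gene hbae3, stood at 0.895 to 4.02 CPM in controls. In miR-150 replicates 1, 2 and 3 it stood at 5.15, 41.4 and 221 CPM, above all controls (adjusted p = 0.758 in edgeR and 0.00195 in DESeq2). DESeq2 called 257 of the 15722 genes tested (1.63%), 232 of them higher in miR-150 libraries, and hbae3 was named after its values were seen. The share of all genes with every miR-150 library above all controls was not counted. The globin gene hbae1.1 overlapped between the groups, at 7.06 to 14.7 CPM in controls and 4.79 to 55.7 CPM in miR-150 libraries. Without miR-150 replicate 3 the log2 fold changes of hbae3 and hbae1.1 were 3.19 and -0.85. The 5 matched myeloid markers summed to 15.8 to 47.6 CPM in controls and 30.8 to 70.8 CPM in miR-150 libraries, with lyz and marco at or near 0. Most of the sum was coro1a, at 10.9 to 39.5 CPM in controls and 18.2 to 53.0 CPM in miR-150 libraries (log2 fold change 0.20, SE 0.64). lcp1 stood at 4.84 to 9.37 CPM in controls and 10.3 to 16.2 CPM in miR-150 libraries, above all controls (log2 fold change 0.87, SE 0.66, edgeR adjusted p = 0.988). Of the 4 matched lymphoid markers, rag1, rag2 and cd4-1 were at 0 in every library and lck was at 0 in all but control replicate 3, where it had 17 counts (0.834 CPM). The 2 matched muscle markers summed to 56.4 to 157 CPM in controls and 86.2 to 190 CPM in miR-150 libraries.

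**Figure D4:**
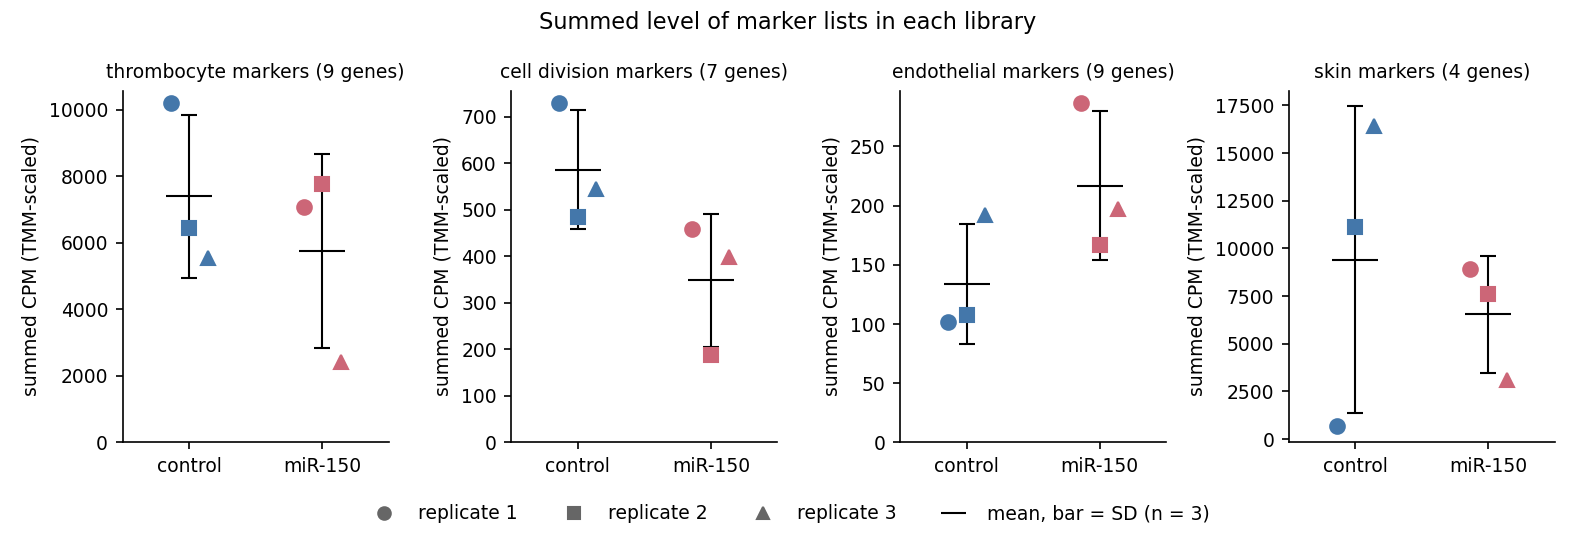
Summed TMM-scaled CPM of 4 marker lists by genotype, on linear axes that start at or just below 0. Points are libraries, marks are means and bars are SD (n = 3). Thrombocyte markers are lowest in miR-150 replicate 3 (2416 CPM), and skin markers are lowest in control replicate 1 (664 CPM). The sum of the cell division genes is lower in the 3 miR-150 libraries (188 to 458 CPM) than in the 3 controls (485 to 729 CPM). Of its 7 genes, 5 had a log2 fold change below 0 and 2 above.

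The genes whose pattern over the 6 libraries was most like each member were found by Pearson correlation of log2 CPM, among 10989 other genes with a mean of at least 5 CPM. These values describe 6 points that share library composition, were picked as the highest of all these genes and carry no p-value. The closest to myb were RHAG (r = 0.995) and SMCHD1 (r = 0.991), and over the 5 libraries without miR-150 replicate 3 both had r = 0.990. For runx1 they were LRRC58 and a gene with a clone name, for gata2a MBNL1 and adpgk2, for tal1 NDRG1 and csnk1da, for lmo2 GCNT4 and UBAP1, and for fli1 VPS39 and a gene with no symbol, with r from 0.992 to 0.9995. The closest other member to myb was tal1, with r = 0.912, which ranked only 170 among the 10989 genes. The closest pair among the 6 was tal1 with fli1, with r = 0.966, where fli1 ranked 174 for tal1 and tal1 ranked 178 for fli1.

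**Figure D5:**
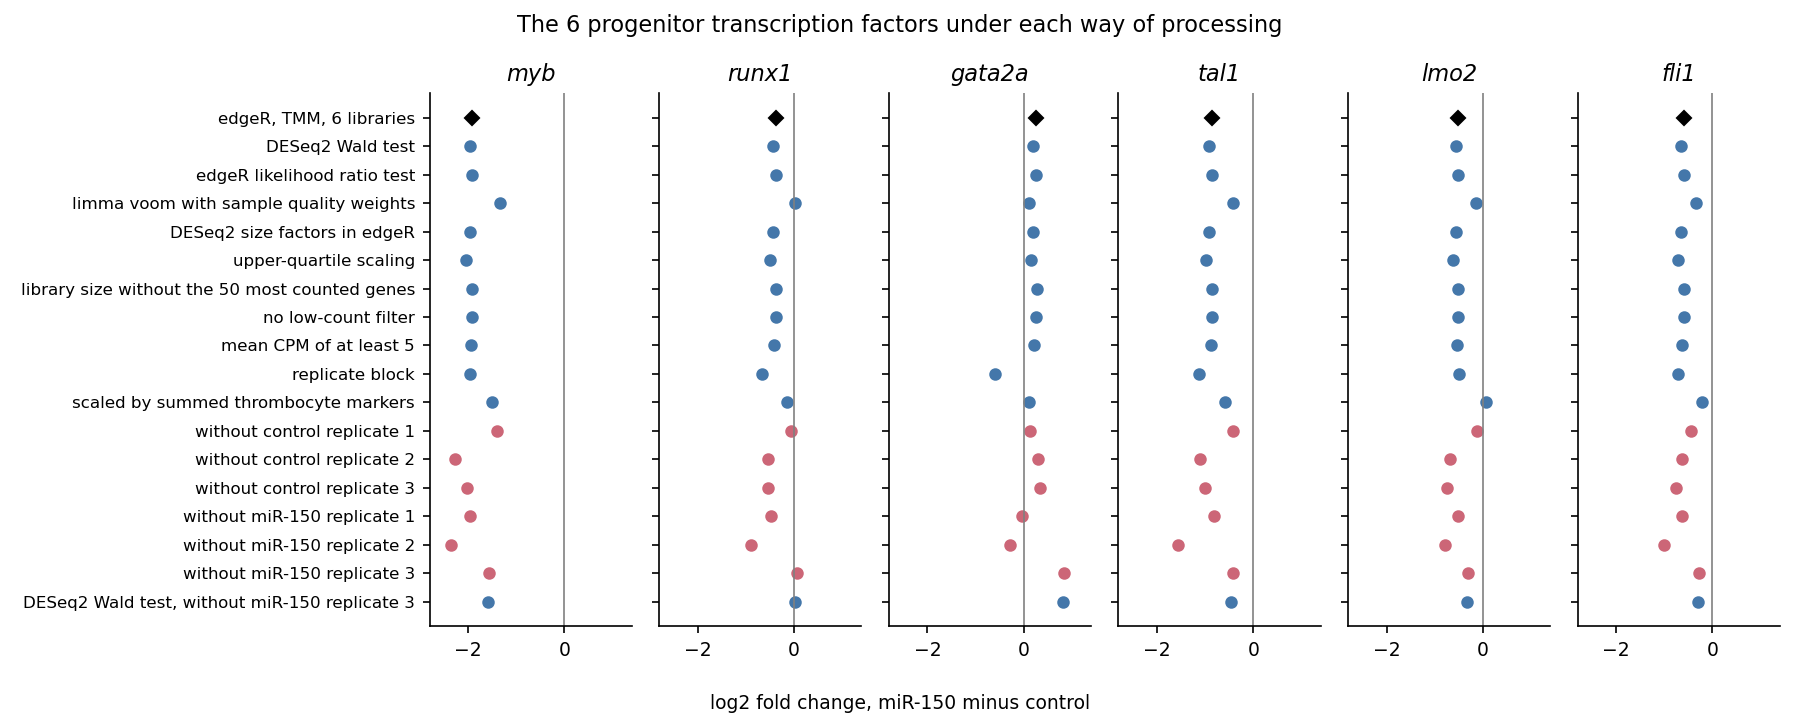
Log2 fold change (miR-150 minus control, horizontal axis) of each of the 6 genes under each way of processing. The diamond is the edgeR fit with TMM on 6 libraries, red points leave out a library and blue points change the test, scaling, filter or design. The blue points of DESeq2 without miR-150 replicate 3 also leave out a library. All values for myb lie between -2.35 and -1.35, whereas those for runx1, gata2a and lmo2 fall on either side of 0.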

How the data were processed

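RNA of sorted thrombocytes was amplified with a SMARTer ultra-low input kit and made into libraries with Nextera XT, per the labels' protocols. The authors deposited raw read counts per Ensembl gene. The submitters' processing notes name STAR 2.7.10b, HTSeq 0.11.3, edgeR 1.34.1 and the build GRCz11, without roles. The annotation release, strand setting and treatment of duplicates are not given in the sources used here, so reads of overlapping genes or gene copies may be shared. No sequence or gene length was at hand. Where genes are ranked by level, summed or set in ratio, the values are counts or CPM not corrected for gene length.

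From the deposited counts, edgeR 4.0.16 (R 4.3.3) kept 15722 genes by filterByExpr, scaled by TMM and tested genotype with glmQLFit and glmQLFTest on 6 libraries. P-values were adjusted over all genes tested, with a threshold of 0.05. Standard errors are those that give the test's F statistic, and the intervals follow from them. limma 3.58.1 and DESeq2 1.42.0 served as alternatives. The code was tested on simulated counts with large changes and a single spread for all genes. That is a check of the code and not of what the test can find in these libraries. Symbols came from a table that paired 29201 of 32520 identifiers, and 62 of 90 list entries matched exactly 1 identifier with case ignored. The 6 genes and the lists were chosen with earlier results of these data known. The naming rule took all 6, the genes of largest mean level in the lists of transcription factors, and the 2 genes most like each member. Other genes, those of the cell type lists included, were named after their values were seen. P-values set the difference between the groups against the spread between these libraries, and the larvae or clutches behind each library are not given.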

Additional observations from a re-analysis of the deposited data

How the results depend on the processing

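None of the 6 genes passed an adjusted p of 0.05 under any of the 17 alternatives. myb, tal1 and fli1 kept a negative log2 fold change in all 17, and the lowest adjusted p of myb was 0.128 (DESeq2 without miR-150 replicate 3, chosen after seeing the data). With one library left out, myb ranged from -2.35 to -1.40, tal1 from -1.56 to -0.42, fli1 from -1.01 to -0.27, lmo2 from -0.80 to -0.12, runx1 from -0.90 to 0.061 and gata2a from -0.28 to 0.84. runx1 turned positive in limma voom with sample quality weights (0.013) and in DESeq2 without miR-150 replicate 3 (0.030). lmo2 turned positive (0.062) with libraries scaled by thrombocyte markers, a scaling chosen after seeing the data, under which the median of all genes was 0.58, so that lmo2 lay at -0.52 relative to it. gata2a turned negative (-0.59) with the replicate number as a block. Under that block myb was at -1.96 (edgeR adjusted p = 0.989). Same-numbered libraries deviated from their group means with correlations of -0.19, -0.10 and -0.038, so the numbers were not taken to pair the libraries. Over all genes edgeR's quasi-likelihood test called 0, as it did with each library left out, where 678 to 1312 had an unadjusted p below 0.05, and limma voom also called 0. The DESeq2 Wald test called 257, the edgeR likelihood ratio test 201, and DESeq2 without miR-150 replicate 3 called 346. The cause was not tested. The standard error of gata2a was 1.59 with all libraries and 0.66 without miR-150 replicate 3, where it had 0 counts.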
